A study of Mus musculus with 12 samples.

Results

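The 7 cytochrome P450 genes Cyp2a5, Cyp2a4, Cyp2d9, Cyp2d10, Cyp2d12, Cyp2d22 and Cyp2d26 were taken by symbol from the 57180 genes counted in mouse kidney. The list was drawn up with the changes of both cannabidiol (CBD) groups against the control group already known. Values against the control group are therefore given for these genes as a description, without a p-value. After the filter on low counts 17163 genes were tested, and 6 of the 7 P450 genes were among them. Cyp2d10 had 58 counts in all 12 libraries together and was not tested.

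The mice were C57BL/6J males, 60 days old at the start, and polyadenylated RNA of the kidney was sequenced. CBD is a cannabinoid of Cannabis sativa, and the comparisons ask how long-term treatment changes the kidney transcriptome. The Control group (4 mice) received saline with Tween 80, and the groups 10CBD and 20CBD (4 mice each) received the same vehicle with 10 or 20 mg CBD/kg b.w., injected intraperitoneally once a day for 28 days. Each mouse gave 1 library.

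Cytochrome P450 enzymes are heme proteins, mostly of the endoplasmic reticulum, that add oxygen to drugs, plant compounds and steroids with electrons supplied by the reductase Por. Cyp2a5 is the coumarin hydroxylase of the mouse and also oxidises nicotine, and its close paralog Cyp2a4 hydroxylates testosterone. The Cyp2d subfamily of the mouse has many genes where man has only CYP2D6 as a functional member. Cyp2d9 is a testosterone hydroxylase that is higher in male liver, and Cyp2d22 is often taken as the mouse counterpart of CYP2D6. In liver, Cyp2a4 and Cyp2a5 are known to follow the day under the PAR bZIP factor Dbp, and these enzymes are better known from liver than from kidney.

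In GRCm39, with the GENCODE annotation, the canonical transcript of Cyp2a4 spans chr7:26006594-26014513 and that of Cyp2a5 chr7:26534730-26542972, both on the plus strand and both with 9 exons. The Cyp2d genes lie together on chromosome 15. Cyp2d9 (chr15:82336535-82341046) and Cyp2d12 (chr15:82439246-82443635) are on the plus strand, and Cyp2d22 (chr15:82254727-82264458), Cyp2d10 (chr15:82287047-82291404) and Cyp2d26 (chr15:82674300-82678495) are on the minus strand.

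How far the paralogs can be told apart decides what their counts mean. The coding sequences of Cyp2a4 and Cyp2a5 were 98.5% identical, with 23 mismatches over 1485 bases, and their longest identical run was 216 bases. Of the windows of 150 bases, the length of the reads, in the Cyp2a5 transcript 7.54% also occurred in transcripts of other genes, and in Cyp2a4 it was 6.48%. Cyp2d9 was 92.5% identical to Cyp2d10 and 92.1% to Cyp2d12, but shared only 1.54% of its windows. Cyp2d22 and Cyp2d26 shared 0 windows with other genes. In Cyp2d10 6.37% of the windows were shared and in Cyp2d12 0.581%. The counts of Cyp2a4, Cyp2a5 and Cyp2d10 are uncertain, since a read pair that lies wholly in identical stretches cannot be placed. Reads that did not align uniquely were tallied apart from the genes, at 2764190 to 4809901 per library. The windows are those of single reads and do not consider the mate of a read. Cyp2a4 also overlaps the antisense gene Gm42375, which had 471 counts in all against 81298 of Cyp2a4, and without a stated strand setting their reads cannot be told apart. The following stretch of exon 4, coding bases 536 to 625 counted from the start codon, is shown because it holds 4 of the 23 mismatches, which are in capitals. It lies on the plus strand of GRCm39, at chr7:26536558-26536647 in Cyp2a5 and at chr7:26008395-26008484 in Cyp2a4.
Cyp2a5: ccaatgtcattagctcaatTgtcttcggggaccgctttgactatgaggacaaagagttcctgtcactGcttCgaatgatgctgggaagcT
Cyp2a4: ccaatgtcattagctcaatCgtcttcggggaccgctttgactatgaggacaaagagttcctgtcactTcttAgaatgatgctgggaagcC

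The RefSeq promoter table (GRCm38.p6) held 5 of the 7 genes and not Cyp2d12 and Cyp2d22. The 250 bases before the start of Cyp2a5 (plus strand, chr7:26835089-26835338 in GRCm38.p6) and Cyp2a4 (plus strand, chr7:26306942-26307191) were 97.6% identical. They are shown because these paralogs had unlike values at 20 mg. Capitals mark the 4 mismatches and the bases that stand opposite a gap.
Cyp2a5 promoter: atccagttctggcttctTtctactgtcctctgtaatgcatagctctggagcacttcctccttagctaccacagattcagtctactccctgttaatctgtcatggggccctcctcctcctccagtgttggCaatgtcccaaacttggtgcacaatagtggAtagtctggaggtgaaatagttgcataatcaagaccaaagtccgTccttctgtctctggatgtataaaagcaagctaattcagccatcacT
Cyp2a4 promoter: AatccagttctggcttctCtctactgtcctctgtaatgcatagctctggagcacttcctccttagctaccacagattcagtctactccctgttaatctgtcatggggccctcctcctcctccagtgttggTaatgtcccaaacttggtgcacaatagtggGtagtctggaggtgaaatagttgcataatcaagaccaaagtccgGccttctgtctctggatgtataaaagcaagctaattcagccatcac

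The promoters of Cyp2d9 (plus strand, chr15:82452127-82452376 in GRCm38.p6) and Cyp2d10 (minus strand, chr15:82407195-82407444) were 82.3% identical over the same 250 bases. This pair is shown because the former was among the more abundant P450 genes here and the latter was almost without counts. Capitals mark the 37 mismatches and the bases opposite a gap.
Cyp2d9 promoter: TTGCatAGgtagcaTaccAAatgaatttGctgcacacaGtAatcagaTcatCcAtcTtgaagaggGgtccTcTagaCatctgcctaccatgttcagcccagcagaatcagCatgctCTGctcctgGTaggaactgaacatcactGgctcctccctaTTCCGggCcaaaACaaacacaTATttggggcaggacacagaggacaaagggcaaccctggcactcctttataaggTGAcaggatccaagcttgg
Cyp2d10 promoter: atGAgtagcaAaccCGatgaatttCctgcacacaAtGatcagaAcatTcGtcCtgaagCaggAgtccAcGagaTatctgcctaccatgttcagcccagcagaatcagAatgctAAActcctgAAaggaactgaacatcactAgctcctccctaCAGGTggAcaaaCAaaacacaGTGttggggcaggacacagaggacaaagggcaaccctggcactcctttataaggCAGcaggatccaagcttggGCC

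The D-box, the element that PAR bZIP factors bind, was searched on both strands as TTATGTAA or TTACGTAA in windows of 300 bases around gene starts. It was in 0 of the 5 P450 promoters and in 1.06% of 32851 promoters. The related letters TTATGCAA, chosen after the promoters had been read, stood on the minus strand of Cyp2a4 and Cyp2a5 and in 0.743% of all promoters. These matches describe letters in a window and not binding.

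The libraries held 15417867 to 23532088 counts on genes. Mitochondrial genes took 3.53 to 5.77% of the counts in 4 libraries (Control 2, 10CBD 1, 10CBD 3 and 20CBD 3) and 12.8 to 23.4% in the other 8. Values in both classes are given below for the 6 tested P450 genes. In whole tissue a lower share of a cell type and less RNA per cell cannot be told apart. Proximal tubule markers, whose cells express many P450 genes, summed to 14233 to 15395 CPM (counts scaled to a common library size) in Control, 13155 to 16202 in 10CBD and 12111 to 14322 in 20CBD, and the median log2 fold change of the 13 markers at 20 mg was -0.13. Markers of hepatocytes, the main site of these enzymes, summed to 153 to 198, 153 to 179 and 171 to 227 CPM for 9 genes. Alb (albumin) was at 5.51 to 19.0 CPM in every library. Of the 6 that were tested, 4 were higher at 20 mg and 2, Alb and Fgb, were lower. Mean CPM in Control and 20CBD was 69.2 and 82.7 for Ttr, 57.6 and 58.2 for Fga, 24.2 and 38.1 for Serpina1a, and 9.67 and 7.66 for Alb.

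Levels of different genes were compared as CPM per kb of canonical transcript. In the Control group Cyp2a4 was highest at 194 ± 22.6 (SD, n = 4), followed by Cyp2d9 at 107 ± 4.82, Cyp2d26 at 86.7 ± 14.1, Cyp2a5 at 57.9 ± 8.83, Cyp2d12 at 47.1 ± 10.2, Cyp2d22 at 10.2 ± 0.704 and Cyp2d10 at 0.0592 ± 0.0801. The ranges of neighbours in this order did not overlap, other than those of Cyp2a5 and Cyp2d12. In 20CBD the order was Cyp2a4 (224 ± 70.7), Cyp2d9 (160 ± 38.4), Cyp2a5 (155 ± 40.3), Cyp2d26 (73.9 ± 13.4), Cyp2d12 (61.9 ± 18.1), Cyp2d22 (15.5 ± 1.45) and Cyp2d10 (0.159 ± 0.102). There the ranges of Cyp2a4, Cyp2d9 and Cyp2a5 overlapped from neighbour to neighbour, as did those of Cyp2d26 and Cyp2d12. Cyp2a5 thus stood below Cyp2d26 per length in Control and above it in both treated groups. In 10CBD its range, 66.1 to 112 CPM per kb, overlapped that of Cyp2d26, 59.4 to 76.9.

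**Figure D1:**
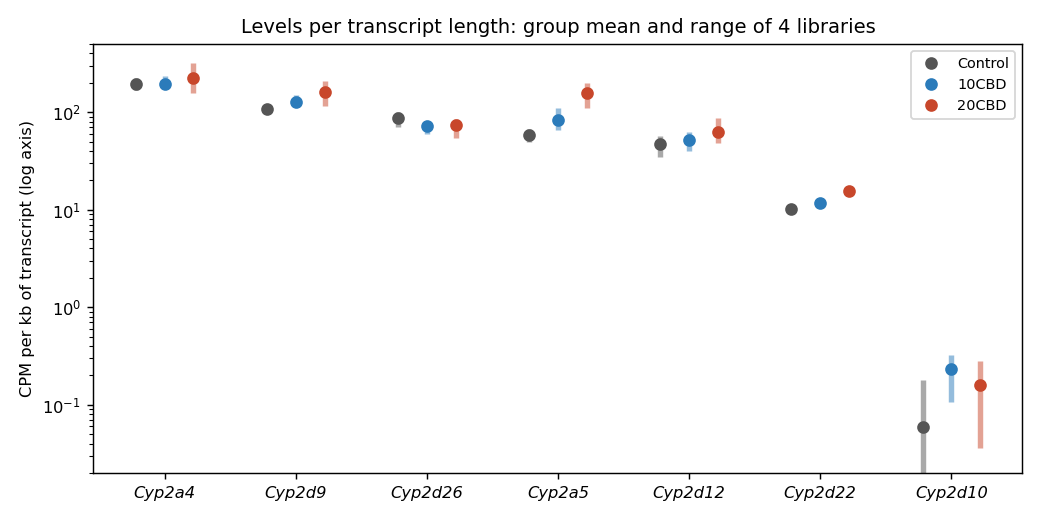
Level of each P450 gene in CPM per kb of transcript on a log axis, with the mean (point) and the range of 4 libraries (bar) in Control (grey), 10CBD (blue) and 20CBD (red). The Control bar of Cyp2d10 reaches 0 and is cut at the lower edge, and Cyp2a5 moves from 57.9 in Control to 155 in 20CBD, next to Cyp2d9 at 160.

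Expression of Cyp2a5 was highest in mice given the higher dose. It was 99.6, 105, 136 and 129 CPM in Control mice 1 to 4, 166, 152, 227 and 134 CPM in 10CBD and 275, 222, 400 and 366 CPM in 20CBD. All 20CBD mice were above all Control mice, and 3 of 4 10CBD mice were, while mouse 4 of 10CBD lay inside the Control range. The means were 118 ± 17.9, 170 ± 40.1 and 316 ± 81.8 CPM (SD, n = 4 each). The log2 fold change against Control was 0.53 (SE 0.20) at 10 mg and 1.42 (SE 0.20) at 20 mg, that is 1.45-fold and 2.68-fold. Without 10CBD 3 the value at 10 mg was 0.36, and at 20 mg it stayed between 1.29 and 1.56 when any single library was left out.

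Cyp2a4, the paralog of Cyp2a5, had overlapping groups. It was 350, 385, 296 and 316 CPM in Control, 408, 312, 342 and 302 CPM in 10CBD and 323, 272, 553 and 408 CPM in 20CBD. The highest value was that of 20CBD 3, a library with a low mitochondrial share. The log2 fold change was 0.019 (SE 0.19) at 10 mg and 0.21 (SE 0.19) at 20 mg, with 95% intervals of -0.39 to 0.43 and -0.20 to 0.62. Leaving out single libraries moved the value at 10 mg from -0.080 to 0.088, and the value at 20 mg from -0.011 without 20CBD 3 to 0.34 without 20CBD 2.

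The share of Cyp2a5 among the counts of Cyp2a4 and Cyp2a5 compares the paralogs within a library and does not depend on normalization. It was 22.1, 21.4, 31.6 and 29.0% in Control, 28.9, 32.8, 39.8 and 30.8% in 10CBD and 46.0, 44.9, 42.0 and 47.3% in 20CBD. All 20CBD mice were above all other mice, and Control and 10CBD overlapped. The means were 26.0 ± 5.02, 33.1 ± 4.79 and 45.0 ± 2.27% (SD, n = 4 each). The exact binomial 95% interval of a single library, which covers counting error only, was for example 20.7 to 22.3% in Control 2 and 46.4 to 48.1% in 20CBD 4. In 20CBD 3, where both genes were highest, the share was the lowest of its group.

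**Figure D2:**
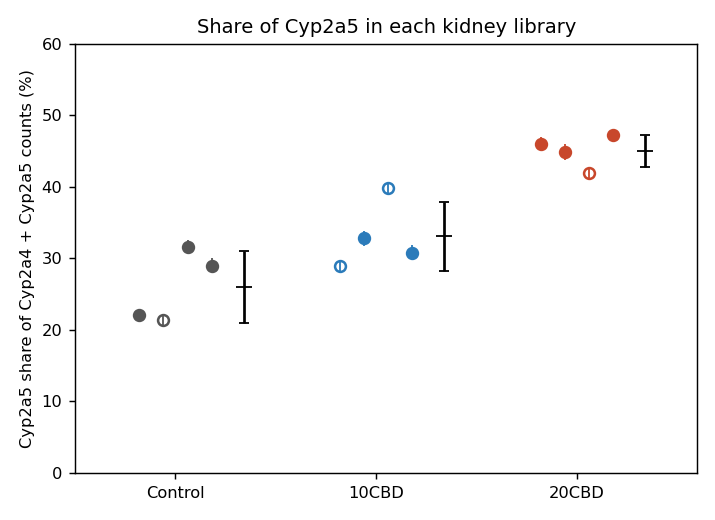
Share of Cyp2a5 in the summed counts of Cyp2a4 and Cyp2a5, in percent, for each library, with exact binomial 95% intervals as thin lines, the mean and SD of 4 mice in black and open circles for libraries with under 10% mitochondrial counts. The 20CBD libraries lie between 42.0 and 47.3%, and the highest other library is 10CBD 3 at 39.8%.

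Cyp2d9 was 178, 173, 188 and 191 CPM in Control, 211, 199, 257 and 195 CPM in 10CBD and 246, 200, 354 and 294 CPM in 20CBD. Every treated mouse was above every Control mouse, although the lowest of 10CBD exceeded the highest Control mouse by little. The Control mice were close to each other, with a mean of 182 ± 8.26 CPM, against 215 ± 28.2 in 10CBD and 274 ± 65.8 in 20CBD (SD, n = 4 each). The log2 fold change was 0.24 (SE 0.16) at 10 mg and 0.58 (SE 0.16) at 20 mg. Without 10CBD 3 the value at 10 mg was 0.14.

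Cyp2d22 was the least abundant of the tested P450 genes. It was 30.0, 26.3, 27.0 and 30.0 CPM in Control, 31.3, 32.1, 36.3 and 30.1 CPM in 10CBD and 41.5, 43.5, 48.4 and 38.9 CPM in 20CBD. The 20CBD mice were above all others, and the lowest 10CBD mouse was barely above the highest Control mouse, at 30.05 against 30.02 CPM. The log2 fold change was 0.20 (SE 0.11) at 10 mg and 0.60 (SE 0.11) at 20 mg, from a Control mean of 28.3 ± 1.95 to 32.4 ± 2.72 and 43.1 ± 4.02 CPM (SD, n = 4 each).

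For Cyp2d12 the groups overlapped. It was 59.5, 71.9, 91.4 and 97.1 CPM in Control, 106, 67.2, 98.2 and 78.7 CPM in 10CBD and 81.1, 100, 150 and 89.0 CPM in 20CBD. Its log2 fold change was 0.13 (SE 0.21) and 0.39 (SE 0.21), and the 150 CPM of 20CBD 3 stood above the rest. Without 20CBD 3 the value at 20 mg was 0.17. The value at 10 mg ranged from 0.016 without Control 1 to 0.24 without 10CBD 2, and was -0.18 among libraries of 10% or more mitochondrial counts.

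Cyp2d26 was the P450 gene of the list with lower means in treated mice. It was 164, 119, 137 and 170 CPM in Control, 101, 124, 131 and 130 CPM in 10CBD and 130, 137, 92.7 and 144 CPM in 20CBD. The groups overlapped, and the lowest values were those of 10CBD 1 and 20CBD 3, both with a low mitochondrial share. The log2 fold change was -0.28 (SE 0.16) and -0.23 (SE 0.16), and without 20CBD 3 the value at 20 mg was -0.11. Among the counts of the 5 Cyp2d genes, Cyp2d26 took 33.6 ± 3.59% in Control, 26.7 ± 3.55% in 10CBD and 23.6 ± 6.27% in 20CBD, while Cyp2d9 took 41.8 ± 2.20, 47.0 ± 1.67 and 49.4 ± 5.71%.

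Cyp2d10 was near 0 throughout, with 7, 1, 1 and 0 counts in Control, 12, 5, 11 and 3 in 10CBD and 8, 1, 5 and 4 in 20CBD. The highest count was in 10CBD 1, the library with the most Alb (19.0 CPM). Of the other hepatocyte markers, Apoa1 (15.4 CPM), Cyp3a11 (2.03 CPM) and Tat were also highest in 10CBD 1. Ttr, Serpina1a, Fgb, Fga and Cyp2c29 were highest in other libraries. In 10CBD 3 there were 11 counts of Cyp2d10 with Alb at 6.69 CPM, and in Control 2 there was 1 with Alb at 12.1 CPM. A relation of Cyp2d10 to hepatocyte markers was not tested. No fold is given at these counts. The other 9 annotated genes of both subfamilies on the list, among them Cyp2a12, Cyp2d11 and Cyp2d13, had 0 to 80 counts each over all libraries and 0 of them were tested.

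**Figure D3:**
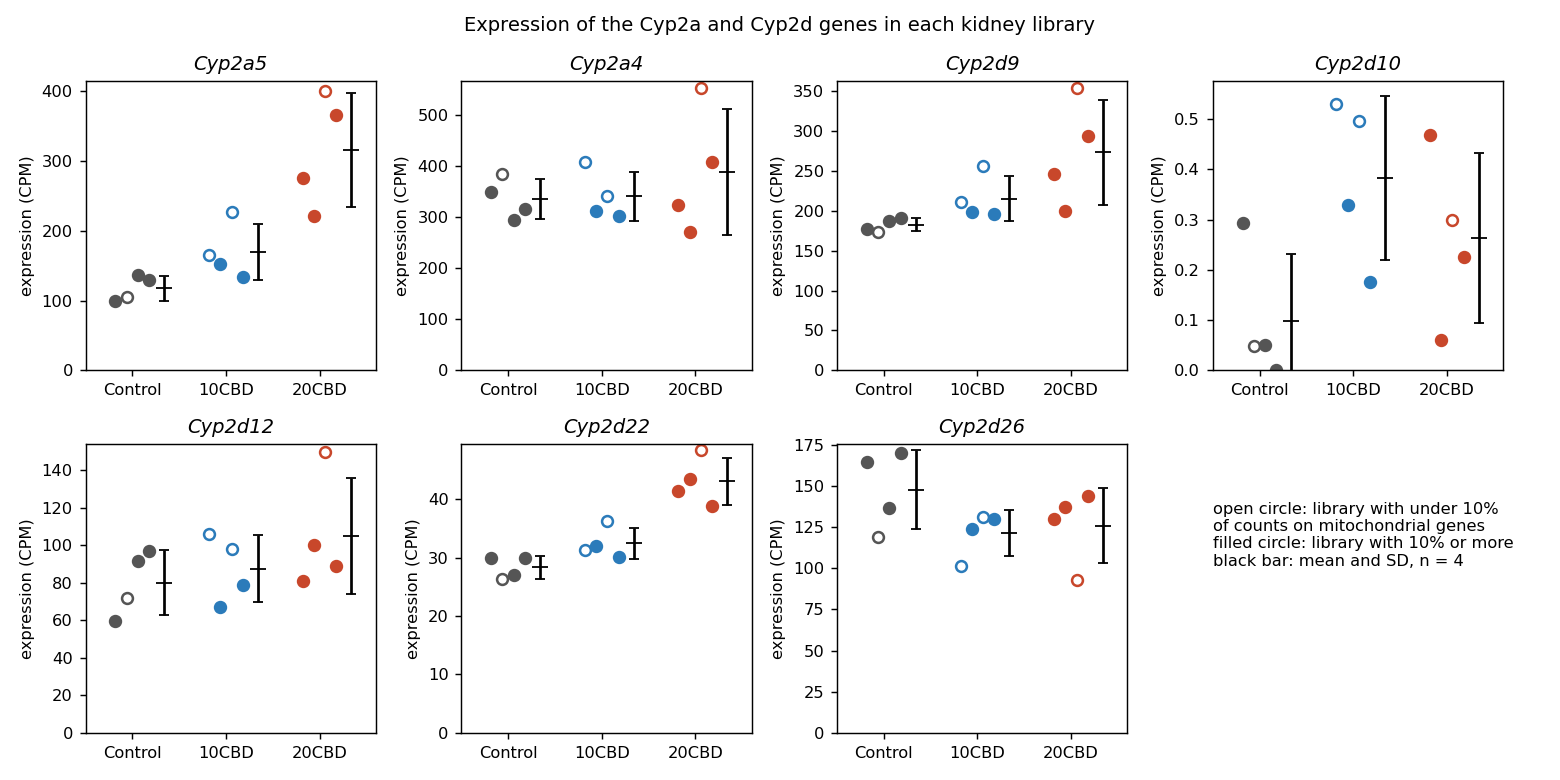
Expression in CPM of the 7 P450 genes in each library of Control (grey), 10CBD (blue) and 20CBD (red), with open circles for libraries under 10% mitochondrial counts and the mean and SD of 4 mice in black. Cyp2a5, Cyp2d9 and Cyp2d22 in 20CBD lie above all Control mice, and Cyp2a4, Cyp2d12 and Cyp2d26 overlap with them.

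Against Control, 0 of the 6 tested P450 genes were called at 10 mg and 2, Cyp2a5 and Cyp2d22, at 20 mg, both higher (edgeR quasi-likelihood test, Benjamini-Hochberg adjusted p under 0.1 over all genes). The background was 0.0291% of all tested genes called at 10 mg and 0.303% at 20 mg, and 0.169% were called as higher at 20 mg. For the mean of both doses 1 gene, Cyp2a5, was called with a log2 fold change of 0.98 (SE 0.18), against 0.14% of all genes. At 10 mg Cyp2d9 and Cyp2d22 had all treated mice above all Control mice, as had 1.55% of all tested genes. At 20 mg Cyp2a5, Cyp2d9 and Cyp2d22 did, with 2.67% of all genes, and for the 8 treated mice together Cyp2d9 and Cyp2d22 did, with 0.42%. Because the genes were chosen on these contrasts, nothing is read from these counts. The median log2 fold change of the 6 genes was 0.16 at 10 mg and 0.49 at 20 mg, beside 0.012 and 0.015 for all tested genes. The call of Cyp2d22 was lost whichever Control library was left out and without 20CBD 2 or 20CBD 3, and that of Cyp2a5 for both doses without Control 1, Control 2, Control 4, 10CBD 3 or 20CBD 4. The comparisons share the Control libraries.

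The comparison of the doses with each other, 20CBD against 10CBD, was not one in which these genes were known to pass, though it uses the same treated mice. It is not independent of the choice. Genes chosen as higher in 20CBD than in Control can be pushed upward here as well. The intervals and adjusted p-values below do not allow for that. In edgeR 0 of the 6 genes were called, and 0% of all tested genes were. Of the 17163 tested genes 1083 had an unadjusted p under 0.05 (edgeR), a threshold that some genes pass without any difference. DESeq2 called 12 genes, 0.0699% of those tested, of which Cyp2a5 was 1. Cyp2a5 was 1.86-fold higher at the higher dose, with a log2 fold change of 0.89 (95% interval 0.47 to 1.32, edgeR adjusted p = 0.758), and 3 of 4 20CBD mice were above all 10CBD mice. Cyp2d22 had 0.41 (0.17 to 0.65, edgeR adjusted p = 0.758), and its 4 20CBD mice were above all 10CBD mice, as was so for 1.7% of all tested genes. Cyp2d9 had 0.34 (0.0065 to 0.68, edgeR adjusted p = 0.782), with overlapping groups. The intervals of Cyp2a4 (0.19, from -0.22 to 0.60), Cyp2d12 (0.26, from -0.18 to 0.71) and Cyp2d26 (0.051, from -0.28 to 0.39) held 0. They do not show that these genes were alike at both doses. Without 20CBD 3 the value of Cyp2d9 was 0.20 and that of Cyp2d12 0.043.

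**Figure D4:**
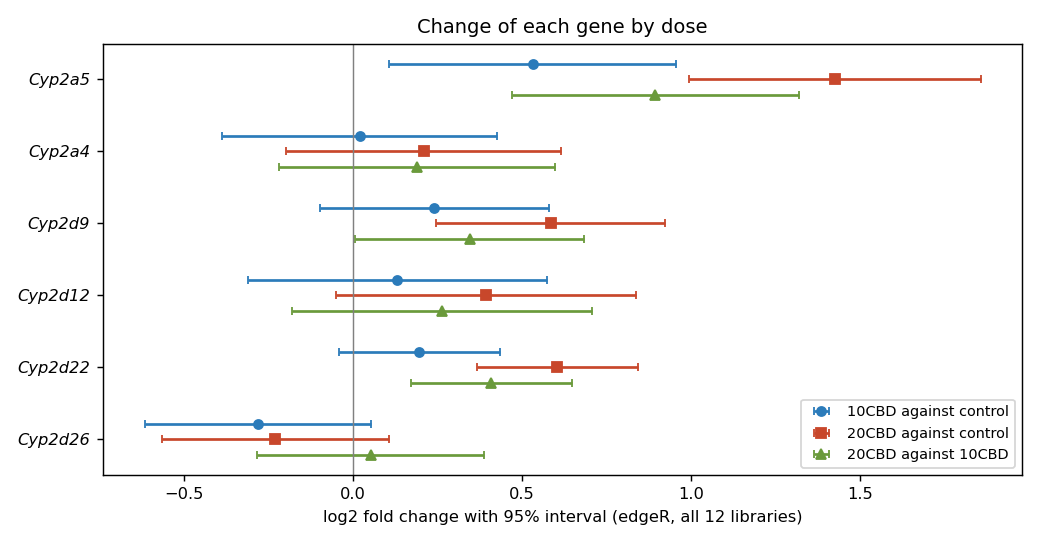
Log2 fold change of the 6 tested P450 genes with 95% intervals from the edgeR fit of all 12 libraries, for 10CBD against Control (blue circles), 20CBD against Control (red squares) and 20CBD against 10CBD (green triangles). Cyp2a5 reaches 1.42 at 20 mg and Cyp2d26 lies at -0.28 and -0.23 against Control.

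The spread between mice of the same group had not been used to choose the genes. Log2 CPM, with the group means removed, was correlated over the 12 libraries for all 21 pairs of the 7 genes, with an exact permutation test within groups (13824 arrangements, two-sided, adjusted over the 21 pairs). Cyp2a5 and Cyp2d9 deviated together, with Pearson's r = 0.93 (exact permutation p = 0.000362, adjusted p = 0.00760) and Spearman's rho = 0.94 (exact permutation p = 0.00116, adjusted p = 0.0243). Without the 2 libraries farthest from the median of Cyp2a5 r was 0.90, and among the 8 libraries with 10% or more mitochondrial counts it was also 0.90 (exact permutation p = 0.0278 over 72 arrangements). The pair stayed the 1 that passed when the mitochondrial share was removed as well and when any single library was left out. Cyp2a5 and its near-identical paralog Cyp2a4 had r = 0.55 (exact permutation p = 0.157, adjusted p = 0.459). The remaining 19 pairs had adjusted p-values from 0.354 to 0.893, and over all 21 pairs 14 had r above 0. Cyp2a4 and Cyp2d9 had r = 0.76 (exact permutation p = 0.0647, adjusted p = 0.354). This r was 0.84 among the 8 libraries and 0.23 without the 2 libraries farthest from the median of Cyp2a4. Cyp2a5 and Cyp2d12 had r = 0.61 (exact permutation p = 0.0673, adjusted p = 0.354), and 0.27 among the 8 libraries. The pair of lowest r, Cyp2a4 and Cyp2d26, had -0.68 (exact permutation p = 0.0407, adjusted p = 0.354) and 0.42 among the 8 libraries.

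**Figure D5:**
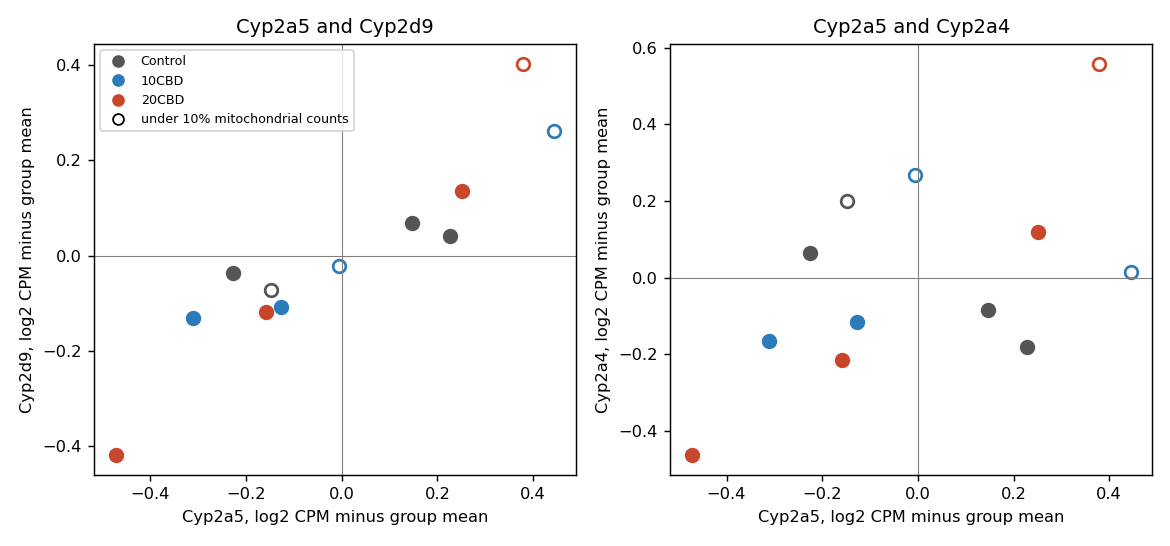
Deviation of each library from its group mean, in log2 CPM, for Cyp2a5 (x axis) against Cyp2d9 (left) and Cyp2a4 (right), coloured by group, with open circles for libraries under 10% mitochondrial counts. The points of Cyp2d9 follow Cyp2a5 (r = 0.93), and those of Cyp2a4 scatter more (r = 0.55).

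Cyp2a4 also moved with the mitochondrial share. In each group its libraries under 10% were above all its libraries of 10% or more: 385 CPM against 296 to 350 in Control, 342 and 408 against 302 and 312 in 10CBD, and 553 against 272 to 408 in 20CBD. Within the 8 libraries of 10% or more, with group means removed, r with the mitochondrial share was -0.96 and rho -0.98 (exact permutation p = 0.0139 for each, the smallest that 72 arrangements can give, and adjusted p = 0.0972 over the 7 genes for r). Without the 2 libraries farthest from the median r was -0.85. For the other genes r there lay between -0.80 (Cyp2d9) and 0.33 (Cyp2d12), with Cyp2d26 at -0.62, and exact permutation adjusted p-values were 0.486 to 0.653. Without the 2 farthest libraries r was -0.95 for Cyp2d26 and -0.82 for Cyp2d22, but 0.62 for Cyp2a5 and 0.41 for Cyp2d9. With 72 arrangements these p-values cannot show that the other genes had no such relation. This relation was looked at after the data were seen. Among the libraries of 10% or more, Cyp2a5 was 99.6 to 136 CPM in Control (n = 3), 134 and 152 in 10CBD and 222 to 366 in 20CBD (n = 3), and Cyp2d22 was 27.0 to 30.0, 30.1 and 32.1, and 38.9 to 43.5 CPM. The libraries under 10% had 105 CPM of Cyp2a5 in Control, 166 and 227 in 10CBD and 400 in 20CBD, and 26.3, 31.3 and 36.3, and 48.4 CPM of Cyp2d22. In the same order of groups, Cyp2d9 was 178 to 191, 195 and 199, and 200 to 294 CPM at 10% or more, and 173, 211 and 257, and 354 CPM under 10%. Cyp2d12 was 59.5 to 97.1, 67.2 and 78.7, and 81.1 to 100 CPM at 10% or more, and 71.9, 98.2 and 106, and 150 CPM under 10%. Cyp2d26 was 137 to 170, 124 and 130, and 130 to 144 CPM at 10% or more, and 119, 101 and 131, and 92.7 CPM under 10%. With only the libraries of 10% or more, the log2 fold change at 20 mg was 0.41 for Cyp2d9, 0.13 for Cyp2d12 and 0.063 for Cyp2a4. At 10 mg it was 0.23 for Cyp2a5, 0.084 for Cyp2d9, 0.094 for Cyp2d22 and -0.065 for Cyp2a4. For Cyp2a5, Cyp2d9 and Cyp2d22 every 20CBD library was thus above every Control library in both classes. Under 10% this compares 1 library of each group. By how much the mitochondrial share enters these values was not tested.

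The genes whose log2 CPM was most alike over the 12 libraries, group differences included, were Ciart (r = 0.95), Klf15 (0.93) and Susd3 (0.93) for Cyp2a5. For Cyp2d9 they were again Ciart (0.95), then Gm16153 (0.90) and Taf1d (0.89), and for Cyp2d22 again Susd3 (0.94), then Marchf5 (0.94) and Cdc42ep4 (0.92). Ciart is a repressor of the circadian clock and Klf15 a zinc finger factor of metabolism. Cyp2a4 had other leading genes, Sergef (0.97), Ufd1 (0.95) and Fars2 (0.95), as did Cyp2d12 with Hoxa7 (0.94), Rps12-ps9 (0.92) and Baz1a (0.91) and Cyp2d26 with Gm11844 (0.95), Dalrd3 (0.93) and Tbccd1 (0.91). These are the highest of 17163 correlations and are given without a test. Spearman's rho of the same pairs ran from 0.81 (Gm11844 and Tbccd1) to 0.96 (Marchf5), with 0.87 for Sergef and 0.82 for Ufd1. Gm11844, at a mean of 0.867 CPM, was near the floor, and Ciart was at 4.01 CPM.

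Among 12 genes that supply P450 enzymes with heme or electrons, 1 was called at 20 mg, beside 0.303% of all tested genes. Alas1, the rate-limiting enzyme of heme synthesis, was 72.1, 55.8, 66.5 and 69.5 CPM in Control, 109, 75.4, 109 and 91.9 CPM in 10CBD and 120, 101, 97.8 and 117 CPM in 20CBD. All treated mice were above all Control mice, as was so for 0.42% of all tested genes. Alas1 rose at 20 mg by a log2 fold change of 0.72 (SE 0.14, edgeR adjusted p = 0.0567), and the value at 10 mg was 0.54 (SE 0.14, edgeR adjusted p = 0.679). This list and those below were drawn up with earlier results of these data known. Their adjusted p-values are therefore descriptive and no independent support. Por, the electron donor, was 331 ± 34.7 CPM in Control and 332 ± 70.3 in 20CBD. The median of the 12 genes at 20 mg was 0.13.

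Of the receptors and partners that govern the response to foreign compounds, 6 of 7 were tested and 0 were called in any comparison (edgeR), with 0 at an unadjusted p under 0.05 and a median log2 fold change of -0.051 at 20 mg. Their values at 20 mg lay between -0.21 (Ahr) and 0.042 (Arnt), with Nr1i2, the receptor PXR, at -0.11, Keap1 at -0.14, and Rxra and Nfe2l2 at 0.0053 and 0.0097. Nr1i3, the receptor CAR, had 46 counts in all and was not tested. Among 8 tested targets of AhR, CAR and PXR 0 were called (edgeR), with 3 at an unadjusted p under 0.05 at 20 mg. Of all 17163 tested genes 1450 had such a p at 20 mg. The targets ranged from -1.54 to 1.66 there, 5 higher and 3 lower. Cyp1a1 was 0.901 ± 0.413 CPM in Control and 0.305 ± 0.175 in 20CBD. Cyp2b10 was 1.25 ± 1.06 and 3.90 ± 2.89 CPM, and Cyp1b1 33.7 ± 7.47 and 52.0 ± 9.45 CPM. Of 12 other tested factors known to act on these P450 genes, a list without the PAR bZIP factors described next, 0 were called (edgeR), with 3 at an unadjusted p under 0.05 at 20 mg. Of 11 genes that respond to androgens in kidney 0 were called (edgeR), with 1 at an unadjusted p under 0.05 at 20 mg. Of 17 tested genes of other Cyp2 subfamilies 0 were called (edgeR), with 3 at an unadjusted p under 0.05 and a median of 0.045 at 20 mg.

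Among the PAR bZIP factors, Dbp rose at both doses. The study had already listed Dbp and Nfil3 among its most altered genes from these same libraries, so their adjusted p-values are descriptive. It was 1.43, 2.19, 2.92 and 2.88 CPM in Control, 14.9, 12.9, 19.6 and 15.3 CPM in 10CBD and 22.4, 22.1, 24.5 and 26.9 CPM in 20CBD. The log2 fold change was 2.75 (SE 0.21, edgeR adjusted p = 1.88e-05) at 10 mg and 3.35 (SE 0.21, edgeR adjusted p = 1.31e-06) at 20 mg. Nfil3, which binds the same element as a repressor, fell at 20 mg by 1.30 on the log2 scale (SE 0.19, edgeR adjusted p = 0.0144), from 9.18 ± 1.47 to 3.72 ± 0.527 CPM. Tef was 120 ± 19.2 CPM in Control and 182 ± 24.9 in 20CBD (0.60, SE 0.14, edgeR adjusted p = 0.169), and Hlf was 80.6 ± 9.68 and 87.8 ± 19.8 CPM. How these genes relate to the P450 genes was not tested, and the time of day at which each group was killed is not given in the sources used here.

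Among the markers of cell types, 1 of 13 proximal tubule genes was called at 20 mg, beside 0.303% of all tested genes. Slc5a2, a glucose transporter of the early proximal tubule, fell at 20 mg by 0.61 on the log2 scale (SE 0.12, edgeR adjusted p = 0.0820). Of the 13 genes 4 were higher and 9 lower at 20 mg, from -0.76 (Lrp2) to 0.33 (Slc7a13). Lrp2, which was not called, went from 2227 ± 314 CPM in Control to 1319 ± 301 in 20CBD. Of 6 tested hepatocyte markers 0 were called (edgeR), with 0 at an unadjusted p under 0.05 at 20 mg. The 6 adipocyte markers summed to 6.90 to 103 CPM in Control, 0.949 to 36.5 in 10CBD and 0.420 to 19.3 in 20CBD. The 5 of them that were tested were lower in treated mice, with a median log2 fold change of -3.17 at 20 mg, 0 called and 5 at an unadjusted p under 0.05 (edgeR). The part of tissue make-up in the P450 values was not tested.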

How the data were processed

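Poly(A) RNA of 12 mouse kidneys was sequenced as paired reads. After trimming with Flexbar, the authors aligned to GRCm39 with STAR 2.7.5c and counted with HTSeq 1.99.2, and the deposited files hold raw counts per Ensembl gene. The strand setting, the annotation release and the use of molecular identifiers are not given in the sources used here. Summary lines were left out, and GENCODE names were matched to 99.0% of the identifiers. Group and mouse number come from the sample labels.

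Counts were filtered by filterByExpr, normalized by TMM and fitted over all 12 libraries in edgeR 4.0.16 (R 4.3.3), with Benjamini-Hochberg adjustment over 17163 genes and calls at adjusted p under 0.1, the threshold of the study. DESeq2 1.42.0 and limma 3.58.1 were alternatives. Log2 CPM used a prior count of 2. Scripts were tested on simulated data. The P450 genes and the gene lists were chosen with earlier results of these data known. Named genes are the 7 P450 genes, list genes called in any comparison, the receptors and PAR bZIP factors, tissue markers, and the 3 genes most alike to each P450 gene. A few other list genes are named with their levels. The counting depth is 15417867 to 23532088 per library, and intervals on shares cover counting error only. Mouse numbers were not treated as pairs. Deviations of same-numbered libraries of different groups had r from -0.33 to 0.32 (median 0.032), and those of unlike number had r from -0.43 to 0.45 (median -0.020).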

Additional observations from a re-analysis of the deposited data

How the results depend on the processing

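Cyp2a5 was called at 20 mg in all 22 alternative fits of single genes, with a log2 fold change of 1.24 to 1.56, and Cyp2d22 in 15 of 22. The genes were chosen on the contrasts against Control. Calls in those contrasts therefore describe the processing only and are no support for a change. The number of P450 genes called at 20 mg was 2. It was 1 (Cyp2a5) at an adjusted p under 0.05 and with the replicate block, 3 (also Cyp2d9) with DESeq2 and without a filter on low counts, and 4 (also Cyp2a4 and Cyp2d9) with the mitochondrial share as covariate. Leaving out single libraries gave 1 to 2, with Cyp2d22 lost whichever Control library was left out and without 20CBD 2 or 20CBD 3. For 20CBD against 10CBD the number was 0, but 1 (Cyp2a5) with DESeq2, without a filter on low counts and with the mitochondrial covariate, and 0 whichever single library was left out. The adjusted p of Cyp2a5 there ranged from 2.62e-05 to 0.999. For both doses it was 1, but 0 at an adjusted p under 0.05, 2 with DESeq2 and 3 with the mitochondrial covariate. It was 0 to 1 with single libraries left out, 0 without Control 1, 2 or 4, 10CBD 3 or 20CBD 4. The numbers at 10 mg and of covarying pairs did not change. The cause of these changes was not tested. Without the filter 416 genes were called at 20 mg over all genes, with DESeq2 182 and in the fit reported 52.

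In the comparison of the doses, Cyp2d9 lay between 0.20 (without 20CBD 3) and 0.47 and Cyp2d12 between 0.043 (without 20CBD 3) and 0.37 when single libraries were left out. Cyp2a4 lay between -0.029 (without 20CBD 3) and 0.33. Cyp2d26 lay between -0.027 (without 10CBD 1, and -0.017 without 20CBD 4) and 0.17, and was -0.097 with the mitochondrial covariate. With the counts of each subfamily summed, the log2 fold change at 20 mg was 0.63 for Cyp2a and 0.32 for Cyp2d, and neither was called. Mouse numbers gave no sign of pairing, with r over 0.1 in 4 of 12 same-numbered pairs and in 13 of 36 pairs of unlike number. The replicate block changed no other count of calls among the P450 genes. Among libraries of 10% or more mitochondrial counts, Cyp2d12 for both doses turned from 0.26 to -0.027.

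Leaving out 1 mouse moved the mean Cyp2a5 share between 24.2 and 27.6% in Control, 30.8 and 34.5% in 10CBD and 44.3 and 46.1% in 20CBD. Counts at the depth of these libraries limit Cyp2d10, of which a library holds at most 12.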
